A study of Drosophila melanogaster with 2 samples.

Results

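Between the promoters and the deep introns of the fruit fly genome, CG17328 had 838 peaks whose summits lay inside a gene, in no exon, and over 500 and up to 2000 bp from the nearest annotated transcript start. They were chosen by position alone, from the summit coordinate (the position of highest signal) of each peak in the list that the authors call conservative, and made up 838 of its 5802 peaks on the main chromosome arms (14.4%, Wilson 95% interval 13.6 to 15.4%). Peaks were mapped by chromatin immunoprecipitation and sequencing (ChIP-seq) in whole Drosophila melanogaster embryos aged 0 to 24 h. The embryos came from the transgenic strain CG17328-GFP, which makes CG17328 fused to eGFP (enhanced green fluorescent protein), and sonicated chromatin was pulled down with an antibody against GFP. There were 2 biological replicates of this 1 genotype, and no control library was analysed here. Cells of every embryonic tissue were mixed in each library, so a peak cannot be assigned to a cell type.

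CG17328 encodes a zinc finger protein, and proteins of this class contact DNA through small folds held by a zinc ion. Introns close to a start site are a common place for enhancers in flies, and genes with several promoters often have their alternative starts in the first, long intron. An intronic summit can therefore lie downstream of one start of its gene and upstream of the next one. Sequence-specific factors usually leave a short summit over the bound DNA, and sheared fragments blur it over neighbouring bases.

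The first set of sequences shows some of the strongest of these intronic summits, not the top 6 in order. They are printed because G+C was on average lower at the summits than beside them, which the rule did not use. Each stretch reaches 50 bp to each side of the summit, on the plus strand of the reference, with coordinates on dm6 and bases from the RefSeq copy of that assembly. Capitals mark the longest run of A and T. Host gene and coordinates come first.
CG11050, chr2L:6612671-6612771: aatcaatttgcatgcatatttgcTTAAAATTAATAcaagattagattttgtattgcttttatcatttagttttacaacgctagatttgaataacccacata
CG32772, chrX:4910311-4910411: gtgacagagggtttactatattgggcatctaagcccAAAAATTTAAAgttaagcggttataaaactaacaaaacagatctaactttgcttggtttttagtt
chif, chr2L:16351166-16351266: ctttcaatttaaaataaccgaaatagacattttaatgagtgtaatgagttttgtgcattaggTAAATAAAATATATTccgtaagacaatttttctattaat
LPCAT, chrX:9579253-9579353: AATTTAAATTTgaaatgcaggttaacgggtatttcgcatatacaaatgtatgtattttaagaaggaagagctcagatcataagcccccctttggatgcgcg
NFAT, chrX:13640474-13640574: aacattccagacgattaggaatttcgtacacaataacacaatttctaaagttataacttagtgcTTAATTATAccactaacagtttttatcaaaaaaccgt
CG3726, chrX:5918870-5918970: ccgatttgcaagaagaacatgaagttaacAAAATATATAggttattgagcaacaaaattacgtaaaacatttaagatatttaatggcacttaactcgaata
The G+C content of the chif stretch was 22.8%, the lowest of the 6, and that of the LPCAT stretch was 37.6%, the highest. The runs of A and T were 9 to 15 bp long and fell at different places relative to the summit.

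The second set shows summits that hold a short word counted further down. Capitals mark the word. The first stretch holds TATTTTAA, and the other two hold the reverse complement of AGGTGGCG, a word of the CTCF insulator protein.
brat, chr2L:19165107-19165207: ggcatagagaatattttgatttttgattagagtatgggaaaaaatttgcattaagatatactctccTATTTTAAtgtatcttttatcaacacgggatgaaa
stet, chr3L:1479433-1479533: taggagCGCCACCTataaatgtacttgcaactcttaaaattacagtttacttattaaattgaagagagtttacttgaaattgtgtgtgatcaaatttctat
CG43693, chr3L:11048039-11048139: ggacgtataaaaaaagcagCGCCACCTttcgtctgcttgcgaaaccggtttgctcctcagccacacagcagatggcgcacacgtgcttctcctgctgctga
The CG43693 stretch had a G+C content of 55.4%, against 27.7% for brat and 29.7% for stet.

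Signal is the authors' signal value of each peak, given once for both libraries together (the pooled signal) and once in each replicate's own list. The strongest member lay in CG11050 (FBgn0031836) on dm6 chr2L:6612556-6612877. Its summit was inside a second intron of 140 bp, 1034 bp downstream of the gene's nearest start, and the peak, 322 bp wide, reached beyond that intron. The signal of this member was 739 in replicate 1, 941 in replicate 2 and 1692 pooled, which gave it rank 6 among the conservative peaks of the arms. The next member lay in introns of both HmgZ (FBgn0010228) and HmgD, which encode chromatin proteins with a high-mobility-group box. It measured 512 in replicate 1 and 679 in replicate 2, and its summit was 568 bp upstream of a start of HmgZ. At CG32772 the third member measured 435 and 590. Replicate 2 was the higher library at each of these sites.

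The hosts of the next members had varied roles. The member in Adf1, which encodes a transcription factor, measured 416 in replicate 1 and 501.1 in replicate 2, at 788 bp downstream of its start. At chif, the Dbf4-like gene of DNA replication, the signal was 447 and 421 and the summit was 933 bp upstream of an alternative start. At Trl, the gene of the GAGA factor, it was 312 and 414, in the second intron. The member in NFAT, a transcription factor gene, measured 378 and 416, and that in CHES-1-like, a forkhead factor gene, 273 and 334. These genes differ in position: Adf1 and Trl had the summit downstream of their own start, chif and NFAT upstream of an alternative one.

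LPCAT, a lysophospholipid acyltransferase gene, had 368 in replicate 1 and 476 in replicate 2. ImpL2, whose product binds insulin-like peptides, had 278 and 376. The cell junction gene cno, encoding the afadin homologue Canoe, had 294 and 286. The signal at brat, which encodes a translational repressor that acts in neural stem cell lineages, was 259 and 338. Among the other hosts were mub, edl, lncRNA:CR44810, CG9663, CG3726, CG9837, sick, norpA, CG31612, Btk and Reph. All of these are from the 25 strongest members that overlapped a peak in the thresholded list of each sample. Over these 25 members the pooled signal ran from 538 to 1692. Replicate 1 ran from 228 to 739 and replicate 2 from 263 to 941. Replicate 2 was higher at 22 of them, with chif, cno and Reph the other 3. First introns held 21 and second introns 4. The summit was downstream of a start of the host gene in 14, upstream of another start of that gene in 9, and nearest to the start of another gene in 2, which were CHES-1-like and Btk.

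Across all members the pooled signal had quartiles of 67.2, 94.8 and 162 and ranged from 2.91 to 1692. The median was 44.5 over the 835 members with a peak in the ranked list of replicate 1 and 54.6 over the 836 with one in that of replicate 2. The sources used here do not say whether the replicates share 1 scale, and the number of reads is unknown. Strong peaks were more frequent here than deeper in introns, with an interval of the difference that leaves out 0. They were about as frequent here as in the whole list. The 580 strongest peaks of the conservative list held 90 members (10.7%), against 60 of the 991 intronic peaks at over 2000 and up to 10000 bp (6.05%), a difference of 4.68 points (Newcombe 95% interval 2.15 to 7.32), and 334 of 2499 promoter peaks (13.4%), a difference of -2.62 points (-4.996 to -0.013). The medians of these parts were close, at 95.2 for the deeper intronic peaks and 98.4 for promoter peaks.

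Replicate support was close to that of the list as a whole. Of 838 members, 420 overlapped a thresholded peak of each sample (50.1%, Wilson 95% interval 46.7 to 53.5%), while 49.8% of all conservative peaks did. A further 129 members overlapped one of replicate 2 alone, 73 one of replicate 1 alone and 216 neither. The difference from intronic peaks at over 2000 and up to 10000 bp was -0.23 percentage points (Newcombe 95% interval -4.82 to 4.36). The median pooled signal was 162 for members supported by both samples, 85.3 for replicate 2 alone, 76.0 for replicate 1 alone and 61.3 for neither. Across the 420 doubly supported members, Spearman's rho of the replicate signals was 0.835, and across the 833 with a ranked peak in each replicate it was 0.770. These correlations are across peaks of the same pair of libraries and describe those libraries. The ratio of replicate 2 to replicate 1 had a median of 1.23 and quartiles of 1.02 and 1.43, and 326 of the 420 were higher in replicate 2.

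**Figure D1:**
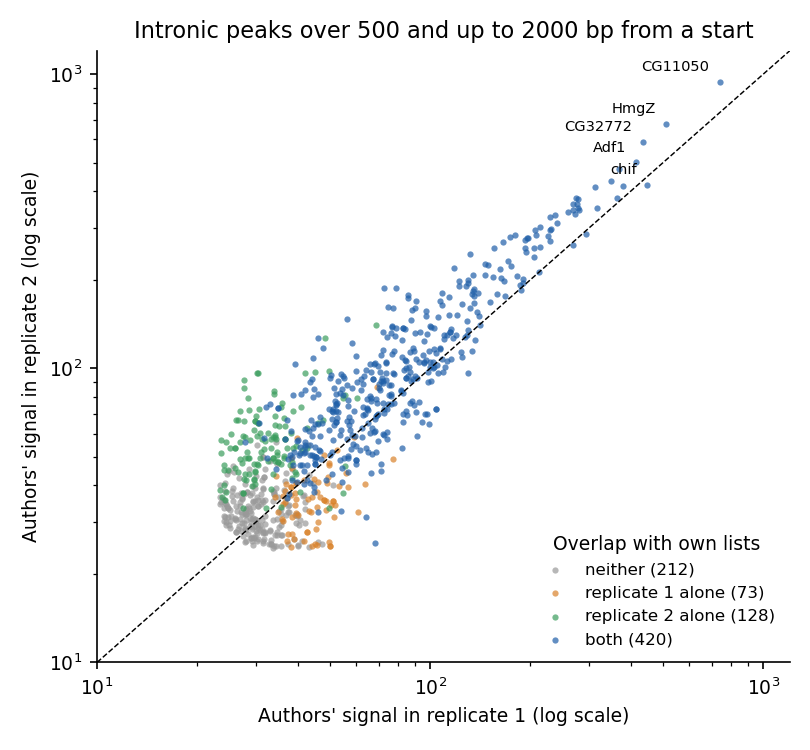
Authors' signal of each member in replicate 1 (x axis) and replicate 2 (y axis), both on log scales, for the 833 members with a ranked peak in each replicate. Colours give the overlap with the samples' own thresholded lists, the dashed line marks equal signal, and names mark the 5 strongest members. Most of the 420 doubly supported members lie above the line (326 of them), and CG11050 is farthest out at 739 and 941.

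Support fell steeply with the pooled signal, which comes from the same libraries as the lists of the replicates. In the strongest sixth of the members, with pooled signals of 212 to 1692, 140 of 140 were supported by each sample, that is, they overlapped 1 of its thresholded peaks. The share was 94.2% in the second group, 72.9% in the third and 22.1% in the fourth. In the last 2 groups, under a signal of 74.94, it was 5.04% and 6.43%. The weakest members of all were mostly peaks beside a stronger one. There were 35 members that overlapped a stronger conservative peak (4.18%, interval 3.02 to 5.75%), against a background of 3.4% of all conservative peaks, and 33 of them were in the weakest sixth. Their median pooled signal was 11, and that of the stronger neighbour was 79.0. For 27 of the 35, the nearest ranked peak in each replicate was also the one nearest to the stronger neighbour. The member in rhea, the talin gene, illustrates this, with a pooled signal of 2.91 but 33.7 and 49.6 in the replicates. Likewise the member in egh, a glycosphingolipid glycosyltransferase gene, had a pooled signal of 5.70 but 115 and 132. Replicate values of those 27 members are therefore not their own.

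**Figure D2:**
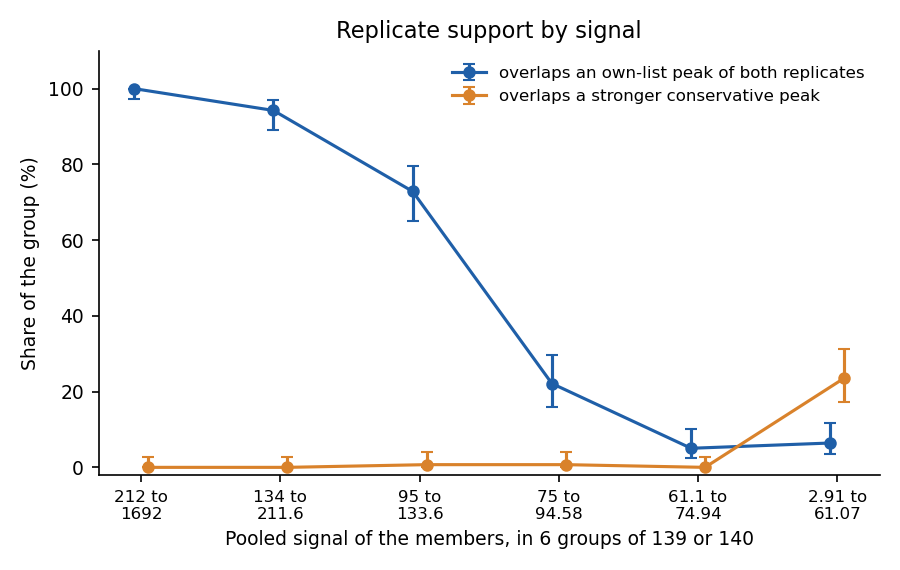
Share of members (y axis, %) that overlap a thresholded peak of each sample (blue) or a stronger conservative peak (orange), in 6 groups of members ordered by pooled signal (x axis, range of signal in each group). Bars are Wilson 95% intervals and cover counting error only. Support falls from 100% in the strongest group to 6.43% in the weakest, where 23.6% overlap a stronger peak.

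The position of these peaks was set beside 127960 candidate summits, which are the peaks of the authors' series-level ranked lists that overlap no thresholded peak. Of the candidates, 11440 (8.94%) were intronic at the same distance from a start, against 14.4% of the conservative peaks. Per length of sequence that meets the rule (11.4 Mb), there were 73.2 members per Mb (exact Poisson interval 68.3 to 78.3), and in introns at over 2000 and up to 10000 bp there were 40.8 peaks per Mb (38.3 to 43.4). The X chromosome had the highest density of the large arms, at 84.5 per Mb (72.8 to 97.6), and 2L the lowest, at 67.7 (56.9 to 79.9). These intervals overlap. Chromosome 4 held 2 members in 0.129 Mb, or 15.5 per Mb (1.87 to 55.8). Y held 0, but in 0.0191 Mb, so its interval reached 193.5 per Mb and includes the density over all arms.

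Members were more often close to the start, and more often in a first intron, than candidates of the same class. At distances of up to 1000 bp lay 390 members (46.5%) against 37.6% of candidates, a difference of 8.97 points (Newcombe 95% interval of a difference of shares, 5.50 to 12.5). Beyond 1500 bp lay 192 members (22.9%) against 29.4%. A first intron held 668 members (79.7%) and 66.3% of candidates, a difference of 13.4 points (10.4 to 16.1). The rank of an intron is the lowest in any transcript of the host gene, for members and candidates alike. It can therefore be a later intron in other transcripts. Where several genes hosted a summit, a gene with the nearest start was preferred. Later introns beyond the second held 63 members (7.52%) and 15.0% of candidates. Most hosts were protein-coding, at 810 of 838 members (96.7%) and 97.4% of candidates, a difference of -0.70 points (-2.17 to 0.36). Just inside and just outside the bounds of the rule, the peaks were as follows. Intronic peaks within the 100 bp below the lower bound numbered 89 with a median pooled signal of 103, and those within the 100 bp above it 96 with a median of 111. In the last 100 bp of the range there were 41 with a median of 86.7, and in the 100 bp after it 30 with a median of 96.8.

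**Figure D3:**
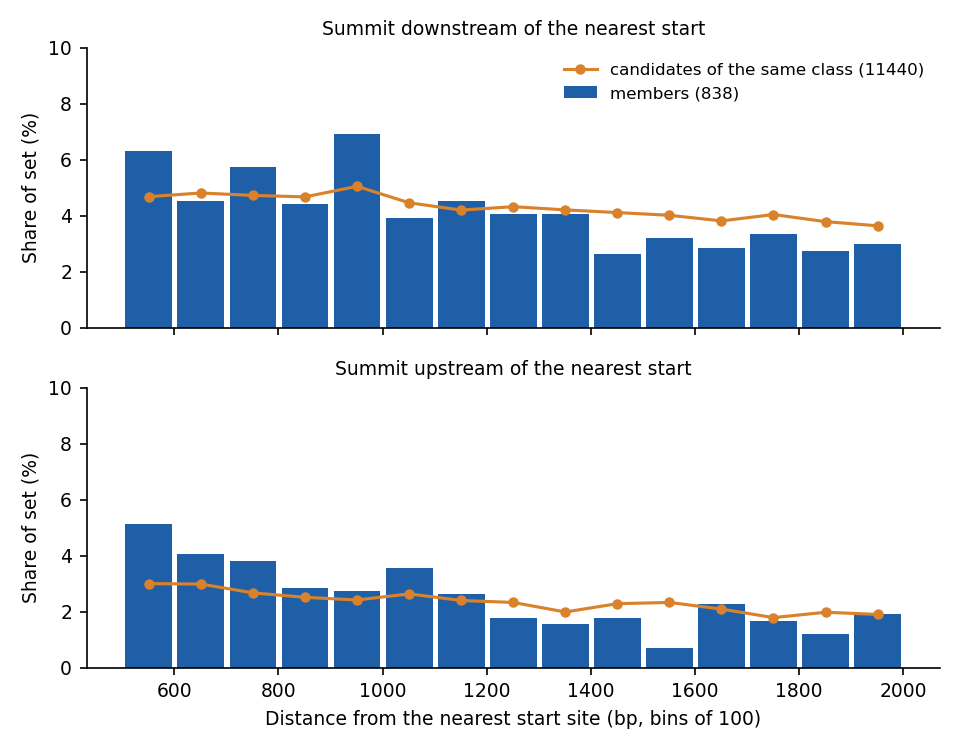
Share of the 838 members (bars) and of the 11440 candidates of the same class (orange line) in each 100 bp bin of distance from the nearest start (x axis, bp), with summits downstream of the start above and upstream below. Each share is a percentage of its whole set. Members exceed candidates mainly within 1000 bp of the start, where 46.5% of members and 37.6% of candidates lie.

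Many summits lay between the alternative starts of 1 gene. The nearest start belonged to the host gene and lay upstream of the summit in 477 members (56.9%). In 217 members (25.9%) the summit was upstream of another start of the same gene, against 17.0% of candidates, a difference of 8.88 points (5.94 to 12.02). The nearest start was that of another gene in 144 members (17.2%), against 28.6% of candidates, a difference of -11.4 points (-13.9 to -8.55). The median signal was 111 for summits upstream of an alternative start, 94.6 for those downstream of their own start and 86.8 for those nearest to another gene. Abd-B, a Hox gene with several promoters, had a member 1495 bp upstream of a start of its own, with 64.5 in replicate 1 and 78.8 in replicate 2. At Mad, the transcription factor of Dpp signalling, the summit was 645 bp upstream of an alternative start and measured 193 and 256.

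The start nearest to a member often had a promoter peak as well. For 233 members (27.8%, interval 24.9 to 30.9%) another conservative summit lay within 500 bp of that start. Of all 23697 annotated starts 16.2% had one, and of the starts nearest to candidates of the same class 15.3% did. The difference from the candidates was 12.5 points (Newcombe interval 9.50 to 15.7). Intergenic peaks at over 500 and up to 3000 bp had one in 20.6%, which was 7.16 points fewer than members (2.27 to 11.8), while intronic peaks at over 2000 and up to 10000 bp had one in 27.6%, a difference of 0.16 points (-3.94 to 4.28). Neither peak of a pair was the higher one throughout. The median signal was 100.9 for the 233 members and 92.5 for their promoter peaks, and the member was the higher one in 124 pairs. Across the pairs Spearman's rho was -0.010, a description over peaks of 1 list. At chif the promoter peak had a pooled signal of 155 beside 846 in the intron, and at LPCAT 120 beside 842. Among the 25 strongest members 7 had a promoter peak at the nearest start.

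The members lay in 673 genes, 7.13% of the 9443 genes that have sequence meeting the rule, and 645 of them were protein-coding. Of these genes, 512 held 1 member, 112 held 2 and 49 held 3 or more. The same peaks were counted for overlapping genes. CG1677 and lncRNA:CR44357, which overlap on the X chromosome, shared the highest count of 10 members, with pooled signals of 4.41 to 462 and 5 in the lists of each sample. This count is by host gene, and the nearest start was not always their own. The member of 462 also lay in an intron of Dok, 813 bp downstream of a start of Dok. For members of 280.5 and 212.1 the nearest start was that of unc-119, and for 1 of 267.6 that of CBP. SNF4Agamma, which encodes a regulatory subunit of AMP-activated kinase, held 7, of which the highest was 124. CHES-1-like held 6, all 6 of them supported by each sample, with signals of 78.9 to 596. Tlk, the Tousled-like kinase gene, also held 6, with 2 supported by each sample. Ptpmeg2 and shn, the zinc finger gene of Dpp signalling, held 5 each.

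Genes with 4 members were Acsl, CG13280, CG43658, NFAT, Shrm, Svil, Tpr2, shot and ush. In Tpr2 all 4 were supported by each sample, and in Acsl and shot 0 did. Genes with 3 members included pum, encoding the RNA-binding protein Pumilio, where all 3 were supported by each sample and signals were 118 to 266. The others with 3 were CG10543, CG13917, CG32264, CG42674, CG43867, CG5953, CG9837, Diap1, Doa, EcR, HmgD, HmgZ, JIL-1, Kank, Mnt, Mob2, Nost, Pvr, Rgl, RhoGAP18B, Src64B, Trl, dlg1, hng3, larp, lncRNA:CR43836, mdy, mtgo, rdx, sick, siz and tna. The relation of these counts to the length of a gene and the number of its starts was not tested.

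Developmental genes were described through 14 lists with 285 symbols, and each list was read against the background density of 73.2 members per Mb. These counts describe the lists, and peaks shared by overlapping genes of a list were counted once in its density. Members were placed by host gene, and the nearest start could be that of another gene. Among the members named below this held for HmgD, trio, drk, insc, Ubx, bib, ptc and fz. It also held for Wnt4, kirre, Syn, fra, NetB, Fas3, EcR, br and Hr4. The 19 segmentation genes with sequence meeting the rule held 0 members, but that sequence was 0.0209 Mb long, so the exact Poisson interval reached 176 per Mb. The chromatin and insulator list had the highest density, with 16 members in 0.0470 Mb, or 340 per Mb (194 to 552). They lay in 7 of 27 genes, 6 of the 16 in Tlk alone, and 6 of the 16 were supported by each sample. HmgZ, HmgD and Tlk, named above, were among these genes. The highest member of Tlk measured 95.7 in replicate 1 and 104 in replicate 2. Trl had 3 members, with pooled signals of 132 to 740. Genes of the cell polarity and cytoskeleton list followed, with 15 members in 10 of 21 genes, or 172 per Mb (96.2 to 284). There the moesin gene Moe had 188 in replicate 1 and 185 in replicate 2, and crb, the apical determinant Crumbs, 113 and 106. The values for trio were 58.3 and 122, and for shot 27.6 and 91.1, where only replicate 2 had a thresholded peak. Of the 15 members, 3 were supported by each sample.

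The EGFR and FGF list had 10 members in 8 of 19 genes, or 172 per Mb (82.6 to 317). The adaptor gene drk had 134 in replicate 1 and 184 in replicate 2. The FGF ligand gene ths had 108 and 164, and the ETS factor gene pnt 56.1 and 146. At sty, the antagonist Sprouty, the values were 52.9 and 90.7. All 4 were higher in replicate 2, the direction of most members. Neural and glial identity genes held 7 members in 6 of 13 genes, or 153 per Mb (61.4 to 314), an interval that includes the background. Besides brat, these included elav, the neuronal RNA-binding protein gene, with 81.9 and 84.4. The other named ones were insc, with 72.6 and 59.3, and fne, with 43.2 and 61.0.

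The intervals of the remaining lists also include the background. Dorsal-ventral and Dpp genes held 8 members in 4 of 17 genes, or 133 per Mb (57.5 to 263). Besides Mad, these were the GATA cofactor gene ush with 102 in replicate 1 and 105 in replicate 2, the receptor gene tkv with 45.0 and 97.5, and the T-box gene Doc1 with 24.1 and 46.8. Hox genes and cofactors held 3 members in 2 of 10 genes, Abd-B and Ubx, and the Ubx member had 50.7 and 51.7. Notch pathway genes held 3 in 3 of 13, of which neur, a ubiquitin ligase that acts on Notch ligands, had 135 and 166. The others were bib with 72.4 and 76.3, and mam with 33.3 and 26.1 and no thresholded peak in either sample. Wingless and Hedgehog genes held 6 in 5 of 19. The Hedgehog receptor gene ptc had 32.2 and 74.1, fz 31.4 and 57.4, Wnt4 29.8 and 40.3, and sgg 31.4 and 39.0. Of these 6 members, 1 was supported by each sample.

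The last 5 lists covered muscle, synapse, axon guidance, epidermis and ecdysone response. Muscle and heart genes held 3 in 2 of 20 genes, or 32.7 per Mb (6.74 to 95.6). They were rols, a myoblast fusion gene with 98.4 in replicate 1 and 97.0 in replicate 2, and kirre, an adhesion gene of the same process with 95.9 and 105. Synapse and excitability genes held 2 in 2 of 19, or 29.1 per Mb (3.52 to 105). Syn had 71.3 and 90.7, and VGlut, the vesicular glutamate transporter gene, 35.7 and 47.2. Axon guidance genes held 9 in 8 of 26, or 64.4 per Mb (29.4 to 122). The teneurin gene Ten-a had 120 and 152, the netrin receptor gene fra 88.6 and 117, NetB 66.2 and 44.0, and Fas3 44.9 and 38.0. Epidermis and trachea genes held 2 in 2 of 11, or 62.6 per Mb (7.58 to 226), rib with 78.8 and 187 and grh with 23.4 and 38.6. Ecdysone response genes held 6 in 3 of 12, or 73.6 per Mb (27.0 to 160). The receptor gene EcR had 67.2 and 92.2, br 42.7 and 62.7, and Hr4 49.5 and 42.8.

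On average the summits were poorer in G and C than their flanks, although single ones were not, such as the printed CG43693 stretch. Within 50 bp of the summit the members had a mean G+C content of 34.0% ± 9.63 (SD, n = 838 peaks), and in windows of the same length centred 300 bp to each side it was 43.2%. The mean difference was -9.29 percentage points ± 12.6 (SD), with a 95% interval of -10.1 to -8.43. Candidates of the same class had a difference of 1.64 points in the opposite direction. No control library was analysed here, and a part of the base composition of the libraries in this dip was not tested. The summit had less G+C than its flanks in 656 members (78.3%, Wilson 95% interval 75.4 to 80.9%), against 70.9% of all conservative peaks and 41.8% of candidates, and not in the other 182. In EcR, for example, it was 45.5% at the summit of the strongest member and 17.3% in the flanks. Over all conservative peaks the mean difference was -7.71 points. The dip followed the signal. From the strongest sixth of members to the weakest, the mean difference was -14.3, -12.9, -11.0, -8.56, -5.36 and -3.55 points. Among the 25 strongest members 23 had less G+C at the summit than in the flanks. The other 2 were mub, with 48.5% at the summit against 38.6%, and cno, with 44.6% against 34.7%.

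The dip in members was close to that of other intronic peaks and deeper than that of promoter peaks. Intronic peaks at over 2000 and up to 10000 bp had a mean difference of -10.3 points, and members were 0.98 points above them (95% interval -0.17 to 2.13). Against intronic peaks beyond 10000 bp, at -11.5 points, members were 2.25 points higher (0.65 to 3.84). Promoter peaks had -5.68 points, and members differed from them by -3.61 points (-4.64 to -2.57). Intergenic peaks at over 500 and up to 3000 bp had -8.47 points, and the interval of that difference included 0 (-2.37 to 0.74). The summit lay in a soft-masked repeat in 196 members (23.4%), and in 22.2% of the intronic peaks at over 2000 and up to 10000 bp.

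**Figure D4:**
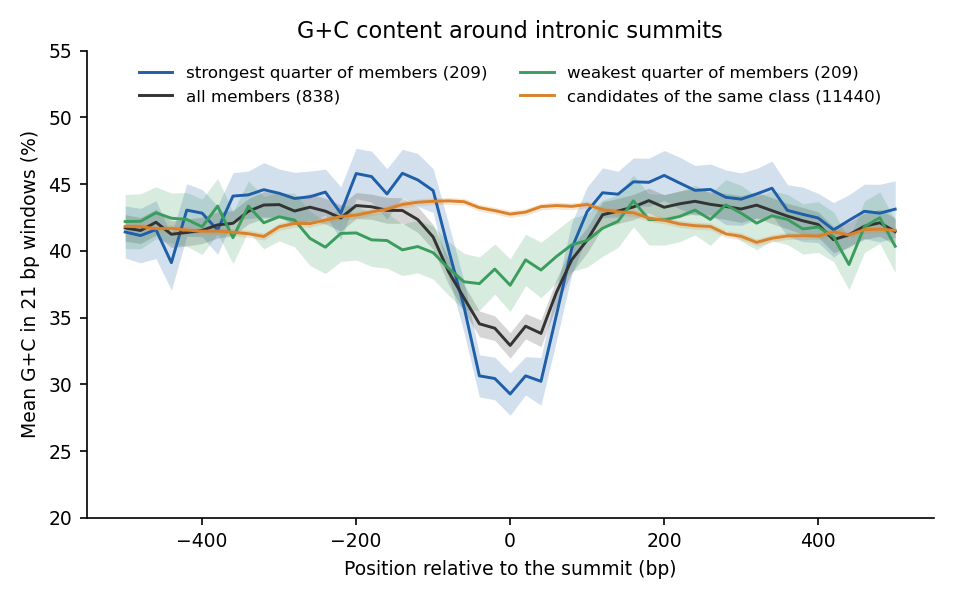
Mean G+C content (y axis, %) in 21 bp windows at each distance from the summit (x axis, bp), for all 838 members, their 209 strongest, their 209 weakest and the 11440 candidates of the same class. Shaded bands are 95% intervals of the mean. At the summit the mean is 29.3% in the strongest, 32.9% in all members, 37.4% in the weakest and 42.8% in candidates.

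Fixed words of 6 to 9 letters were counted on both strands, wholly within 50 bp of the summit, and in the 2 flank windows of each member. Words of different factors can overlap in the same letters, and a match describes letters, not binding. Of 24 words, 2 were more frequent at the summit with separate Wilson intervals, 2 were less frequent, and for 20 the intervals overlapped. TATTTTAA was in 56 summit windows (6.68%, interval 5.18 to 8.58%) and 1.31% of flanks, beside 5.1% of all conservative peaks and 1.21% of candidates of the class. This word was taken from an earlier ranking of these same peaks, so its excess over flanks is a description. The interval of the difference from other intronic peaks included 0, at 2.04 points for those over 2000 and up to 10000 bp from a start (-0.077 to 4.26) and 1.83 points for those beyond (-1.53 to 4.51). So did that from promoter peaks, at 1.32 points (-0.46 to 3.38). From intergenic peaks at over 500 and up to 3000 bp the difference was 3.03 points (0.43 to 5.36). The homeodomain core TAATTA was in 83 summit windows (9.91%) and 5.31% of flanks, and in 9.15% of all conservative peaks, close to its share in members. It also consists of A and T alone. Against these, GAGAGAG of the GAGA factor was in 6 summit windows (0.716%) and 4.48% of flanks, beside 1.22% of all conservative peaks and 1.85% of candidates of the class. The Snail-type E-box CAGGTG was in 16 (1.91%) and 4.06% of flanks, beside 2.43% of all conservative peaks.

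**Figure D5:**
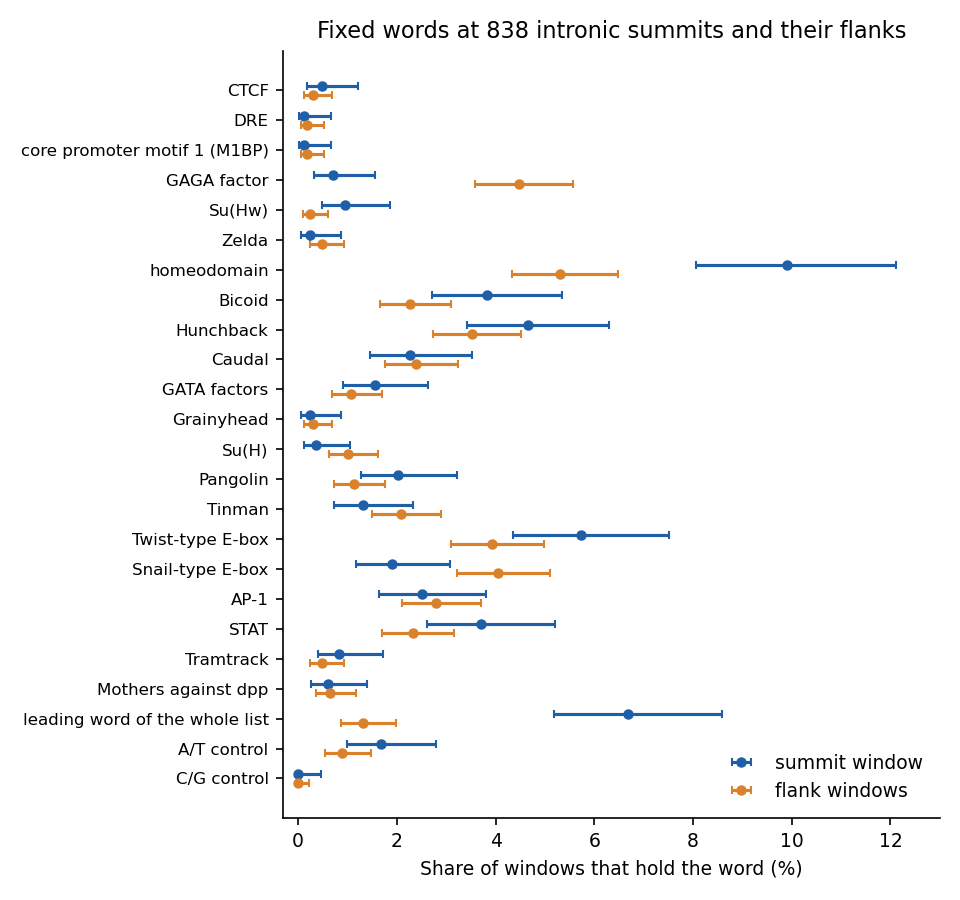
Share of windows that hold each fixed word (x axis, %), at the 838 summits (blue) and in their 1676 flank windows (orange), with Wilson 95% intervals, each word named by its factor or role (y axis). Summit and flank intervals are apart for the leading word of the whole list (6.68% and 1.31%), homeodomain (9.91% and 5.31%), GAGA factor (0.716% and 4.48%) and the Snail-type E-box (1.91% and 4.06%).

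Words of insulator and core promoter proteins were rare at summits and in the sequence around them. TATCGATA, the DNA replication-related element (DRE) found at many fly promoters, was at 1 member (0.119%), 0.179% of flanks and 0.184% of candidates of the class, against 1.15% of all conservative peaks and 2.48% of promoter peaks. The difference from promoter peaks was -2.36 points (Newcombe 95% interval -3.06 to -1.59). That member lay in CG8086, with 24.9 in replicate 1 and 29.3 in replicate 2 and no thresholded peak in either. AGGTGGCG, the CTCF word, was at 4 members (0.477%), in stet, CG43693, CG13280 and SNF4Agamma, against 0.707% of all conservative peaks, 0.298% of flanks and 0.219% of candidates of the class. Its highest carrier, in stet, measured 134 and 114. TGCATACT, a core of the Su(Hw) insulator site, was at 8 members (0.955%, interval 0.485 to 1.87%) and 0.239% of flanks, with overlapping intervals, beside 0.758% of all conservative peaks. Of those 8, 5 were among the 209 strongest members, and the highest, in S, which encodes the EGFR ligand chaperone Star, measured 194 and 249. CCGGAAA, a word added after the data had been seen, was at 7 summits (0.835%) and 0.716% of flanks.

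The other fixed words had overlapping intervals at summits and flanks. They were GGTCACAC of core promoter motif 1, CAGGTAG of Zelda, GGATTA of Bicoid, ATAAAAAA of Hunchback, TTTATGG of Caudal, AGATAAG of GATA factors, AACCGGTT of Grainyhead, GTGGGAAA of Su(H), ATCAAAG of Pangolin, CACTTGA of Tinman, CATATG of Twist-type E-boxes, TGANTCA of AP-1, TTCNNNGAA of the STAT factor, AGGATAA of Tramtrack and GGCGCCA of Mothers against dpp. CATATG was the most frequent of these, at 48 summits (5.73%) and in 3.94% of flanks, beside 3.79% of all conservative peaks and 3.49% of candidates of the class. Zelda, the early activator of the embryonic genome, had its word at 2 summits (0.239%) and in 0.477% of flanks. Of the control words, TATATATA was at 14 summits (1.67%) and in 0.895% of flanks, and GGCCGGCC at 0 of 838 summits and in 0 flanks, which allows a share of up to 0.456% of summits by the Wilson interval.

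All words of 7 letters were ranked by their excess over flanks on 2L, 2R and 4, which hold 297 members, and then counted at the 541 members of 3L, 3R and X. Each of the 10 leading words was free of G and C, and all 10 were more frequent at summits than in flanks on the other arms. ATTTTAA was at 81 of these 541 summits (15.0%) and in 4.44% of 1082 flank windows. TAATATA was at 42 (7.76%) and in 1.48%, and TTTAAAA at 86 (15.9%) and in 5.08%. These words overlap in letters, and TATTTTAA contains the first of them. Summits had less G+C than flanks, which by itself favours words of A and T over those with G or C. An excess or lack beyond base composition was not tested. On 3L, 3R and X TATTTTAA was at 32 summits (5.92%) and in 1.39% of flanks. That word came from the earlier ranking of these peaks, so this count is a description. The 5 leading words with 2 or more C or G were all more frequent at summits than in flanks on the other arms, by ratios of 1.2 to 3.71. The first of them, AGCAAAT, was at 18 summits (3.33%) and in 2.77% of flanks, and the one with the highest ratio, AAGGATT, at 13 (2.40%) and in 0.647%. AAGGATT shares the letters AAGGAT with AAAGGAT and, on the other strand, with ATCCTTA, so these are not separate words. Counts were small, such as ATCCTTA at 5 summits and in 5 of 1082 flank windows. Of the 10 words most depleted on the ranking arms, 8 were also less frequent at summits on the others, such as AGTGGCA, at 1 summit and 29 flank windows.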

How the data were processed

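ChIP-seq peak lists on dm6 were analysed for both samples of 1 group. Per the file listings, the lists derive from each sample's alignments, or those of both samples, with a control alignment. Their aligner and peak caller are not named in any source used here. The deposited signal is the authors' signal value of each peak. The deposited score follows the irreproducible discovery rate (IDR) and was at least 830 in the conservative list. The −log10 columns hold the authors' transformed IDR, which was not used for any value printed here. Read depth is unknown.

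Gene models were Ensembl release 115 (18277 genes, 23697 start sites, transposable elements left out), and sequence was the RefSeq copy of Release 6. No peak ended past a chromosome end. Members were found by position alone. A replicate's value is the signal of its thresholded peak with the closest summit, else of its ranked peak, overlapping by at least 1 bp. Named are the hosts of the 25 strongest members supported by each sample, hosts with 3 or more members, and up to 4 hosts per gene list, apart from a few items not reported here. Of 285 listed symbols, 1 was not found. The members, lists and words were chosen with earlier results of these data known. With 1 group there is no test and no p-value. Wilson, Newcombe, Poisson and normal 95% intervals take peaks as units, although these are no replicates, and hold only the counting error. The steps were tested on simulated positions (Python 3.11.15, numpy 2.4.6, scipy 1.17.1). As alternatives, values were recomputed with the second series-level list, the 2901 strongest peaks, each sample's own list, and other distances, windows and overlap rules.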

Additional observations from a re-analysis of the deposited data

How the results depend on the processing

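Of 75 alternative values, 49 stayed within the interval of the value reported (for the count of members, within 1.5 times), and 26 fell outside it. Counts, shares and medians cannot change sign. The G+C difference and Spearman's rho could, and 0 of their alternatives did. The cause was not tested unless the alternative fixes it. With the 2901 strongest conservative peaks, which by construction are fewer and stronger, there were 422 members, 88.9% of them were supported by both samples, the median signal was 162, the G+C difference was -12.7 points, DRE was at 0%, the host's own start was nearest in 85.3% (82.8% in the full list), and 14.0% had a promoter peak. With the list of 1 replicate in place of the conservative list, the members numbered 515 to 601, the median signal was 66.4 to 71.2, and the G+C difference was -11.8 to -9.32 points. The CTCF share was then 0.166 to 0.388%, the DRE share 0 to 0.166%, and the promoter peak share 21.8 to 23.1%; the lower count came without replicate 2. Distances of over 250 and up to 3000 bp gave 1317 members, and a reciprocal overlap of 50% gave 41.2% supported by both. The other series-level list gave a promoter peak share of 31.0%, and promoter windows of 250 and 1000 bp gave 19.6% and 37.1%. Starts of protein-coding genes only gave 89.2% with the host's start nearest. Windows of 25 bp gave 3.46% with TATTTTAA and 0% with DRE, windows of 100 bp gave 10.1% with TATTTTAA and a G+C difference of -6.75 points, and flanks at 500 bp gave -7.73 points. Without the 35 members that overlap a stronger peak, an alternative chosen after seeing the data, support by both was 50.9%, the median signal 98.5, the G+C difference -9.65 points and the TATTTTAA share 6.60%. No paired analysis was possible because there is 1 group. With 2 samples, no control library and no read depth analysed here, how far the weaker peaks would recur cannot be given.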

Other observations

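Other conservative summits lay near many members. For 105 of 838 (12.5%) another summit was within 500 bp, and the median distance to the nearest other conservative summit was 1872 bp. Members with a pooled signal under 30 numbered 31, and 29 of these overlapped a stronger conservative peak. Introns of more than 1 gene held 77 members (9.19%), against 7.10% of candidates of the same class, a difference of 2.09 points (Newcombe 95% interval 0.25 to 4.28). Among summits nearest to a start of another gene, 13.9% had a promoter peak at that start (Wilson interval 9.17 to 20.5%), against 32.3% of summits downstream of a start of their own gene (28.2 to 36.6%).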
